A study of Bos taurus with 8 samples.

Results

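Glycolysis and hypoxia response genes were followed in cultured bovine Müller glia exposed to 2 HIV-1 proteins. The list held 35 genes: glucose transporters, the enzymes that turn glucose into pyruvate and lactate, the lactate exporters, and genes of the cellular response to low oxygen. They were found by the gene name that the array files give to each probe, which placed 33 of the 35 on the array and, with all 33 expressed above the filter, in the tests. All named genes on the array numbered 16911, of which 11994 were tested. HK2, a hexokinase, was not found under any name used here, and PKM, the last enzyme of glycolysis, was reached only through its accession, so it is described separately and not counted.

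Each sample was read on its own single-colour Agilent bovine array. The TAT group (100 ng/ml of the viral transactivator protein) had 3 arrays with the letters A, B and C, the gp120 group (60 ng/ml of the viral envelope glycoprotein) had 3 arrays with the same letters, and the control group had 2 arrays, A and B. Exposure lasted 24 h, and all cultures came from bovine eyes and had been grown for 18 to 21 days. The treatment description is shared by every sample, controls included, and names both proteins, so the groups rest on the sample titles, and the extraction description calls the cells astrocytes. The labels do not say whether a letter marks a separate culture, animal or preparation, and the p-values therefore measure only the spread between these samples, which may be technical.

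Glycolysis splits each glucose into pyruvate and yields a small amount of ATP without oxygen. Müller glia, the radial glia of the retina, are known for a strongly glycolytic metabolism and for releasing lactate. When oxygen is short, the prolyl hydroxylases encoded by the EGLN genes stop marking the transcription factor subunit HIF1A for degradation, and HIF1A then switches on glucose transporters, glycolytic enzymes, lactate export and genes such as CA9, BNIP3 and ADM. HIF1A is controlled mainly through the stability of its protein, which an expression array does not read.

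Between 55.5% and 64.6% of the spots of an array were well above background, and 0 were saturated. All 8 arrays shared 1 slide, whose row 1 carried TAT A, gp120 A and both controls. A separate scan at a higher detector voltage produced the gp120 B and C values. Of the 11 Müller glia markers on the array, RLBP1 and GFAP were well above background on only 2 of 8 arrays and KCNJ10 on 1. The other 8, among them GLUL, SLC1A3, VIM and AQP4, were well above background on 8 of 8 arrays. The same held for all 15 markers of microglia and macrophages and for 10 of 11 of fibroblasts and stroma, which are genes known from other cell types. In bulk samples, fewer cells of a type and less RNA per cell cannot be told apart.

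None of the 33 genes passed the test for either protein against control or between the proteins, while 17 of them differed between the letter A arrays and the arrays of letters B and C, a comparison in which 23.7% of all genes tested also passed. Levels are given below as log2 of the processed signal relative to the array's 75th percentile, so a level of 0 is the brightness of that percentile and a step of 1 is a doubling. Differences come from limma with Benjamini-Hochberg adjustment over all 11994 genes, two-sided, with a threshold of 0.05. Since probes differ in how brightly they read their target, levels are compared between arrays and never between genes. The plot of all members by array shows the columns for TAT A, gp120 A and control A standing out from the other 5.

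**Figure D1:**
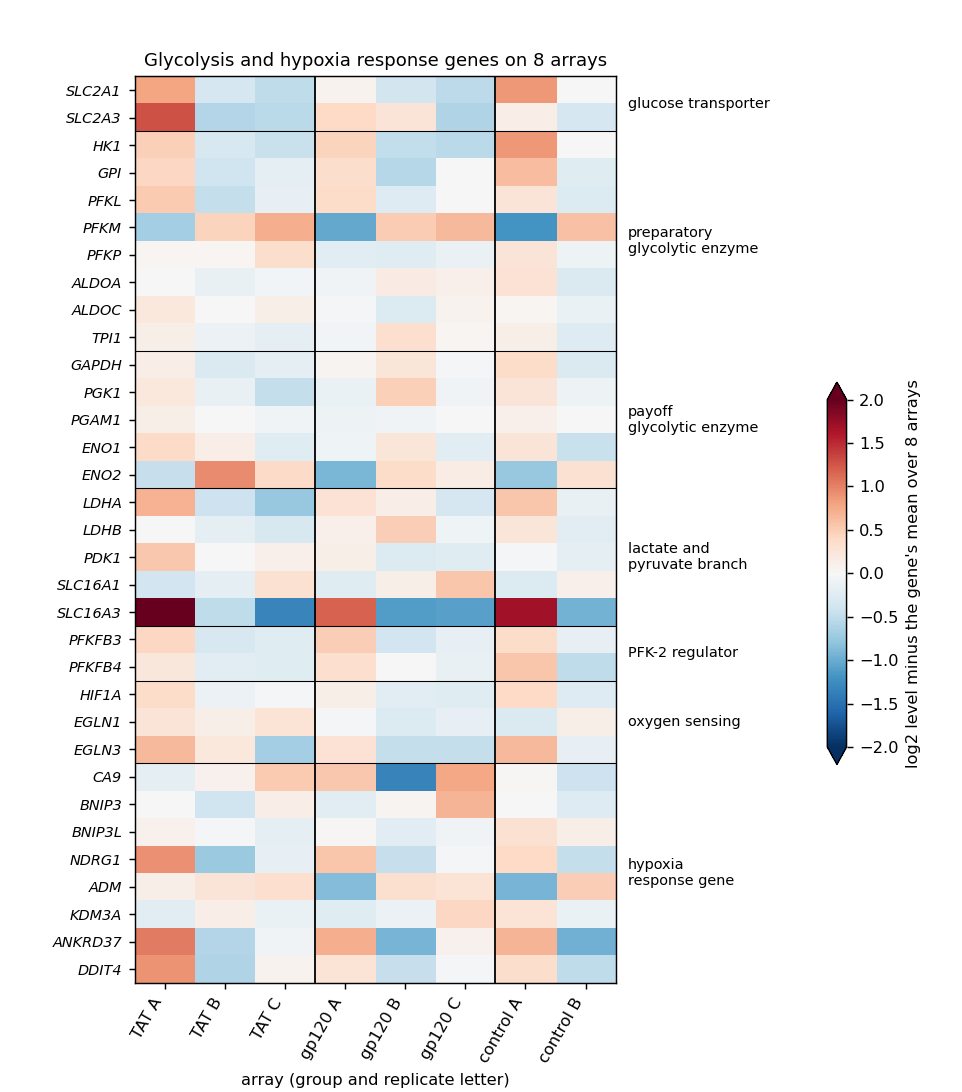
Log2 level of each of the 33 genes on each of the 8 arrays, minus the gene's own mean over the arrays (red above the mean, blue below; colours saturate at 2), with genes in rows by role and arrays in columns by group and letter. The letter A columns hold most of the strong colours: TAT A has 27 and control A 26 of the 33 genes above their own mean, gp120 A has 19, and the other 5 arrays have 9 to 14.

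The 4 members with the smallest p between letters were each read by a 60-base probe on one strand of the bovine build HGSC Btau_3.1 named in the file headers. The first 30 bases of the 4 probes are printed in lower case from the 5′ end, because the results below turn on what these oligonucleotides bind. The gene features of that build were not used here, so no exon or UTR is given.
SLC16A3: gtggtttctgttcactggtgtgtgtttgaa
ANKRD37: gcgaagataatgttcaagaatacatgtatt
PFKM: acagtgacacaccataactacactaataaa
ENO2: ccccgtgccatgtttcacagctgccagcac
The SLC16A3 probe lies at chr19:52030853-52030912 on the minus strand and the ANKRD37 probe at chr27:16967796-16967855 on the plus strand. The PFKM and ENO2 probes lie at chr5:35330396-35330455 and chr5:10522504-10522563, both on the minus strand. The 4 probes have a GC content of 38.3%, 35%, 43.3% and 55%, in the order SLC16A3, ANKRD37, PFKM and ENO2.

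Both glucose transporters stood higher on letter A arrays on average. SLC2A1, the widespread basal glucose transporter GLUT1, had log2 levels of 2.67, 1.55 and 1.37 on TAT arrays A, B and C, of 1.96, 1.52 and 1.35 on gp120 arrays A, B and C, and of 2.76 and 1.89 on control arrays A and B. The highest array of every group was its letter A array, and the ranges of the 3 groups overlapped. SLC2A1 differed by -0.46 (SE 0.45) between TAT and control and by -0.71 (SE 0.45, 95% interval -1.75 to 0.33) between gp120 and control, and neither passed the test. Its other kept probes gave -0.05 and 0.10 between TAT and control, and -0.18 and 0.20 between gp120 and control. SLC2A3, the high-affinity transporter GLUT3, ranged from 2.92 to 4.79 on TAT arrays, from 2.90 to 3.91 on gp120 arrays and from 3.17 to 3.65 on control arrays. Unlike for SLC2A1, the letters overlapped, with gp120 B (3.77) above control A (3.65). Letter A exceeded the mean of letters B and C by 0.88 (SE 0.17, adjusted p = 0.016) for SLC2A1 and by 1.07 (SE 0.30, adjusted p = 0.0477) for SLC2A3. These calls were kept in 10 and 7 of 18 alternative settings, some of which repeat another fit.

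Of the 8 preparatory enzymes, which spend ATP to make triose phosphates, 3 passed as higher and 1 as lower on letter A arrays (10.8% and 12.8% of all genes), and 0 passed for a protein (0% of all genes). HK1, the hexokinase that traps glucose by phosphorylating it, had log2 levels of 5.55, 4.75 and 4.62 on TAT arrays A, B and C, of 5.52, 4.57 and 4.53 on gp120 arrays A, B and C, and of 5.94 and 5.08 on control arrays A and B. Every letter A array lay above every other array, and in letters A and B, the ones with a control, the control array was the highest. HK1 differed by -0.54 (SE 0.44) between TAT and control and by -0.64 (SE 0.44) between gp120 and control. With the letter as a block, which compares arrays within letters, these differences were -0.37 (SE 0.15) and -0.47 (SE 0.15), with adjusted p of 0.937 and 0.785 in limma.

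PFKM, the muscle-type subunit of phosphofructokinase, ran the other way. Its log2 levels were -1.05, 0.08 and 0.36 on TAT arrays A, B and C, -1.38, 0.14 and 0.29 on gp120 arrays A, B and C, and -1.56 and 0.22 on control arrays A and B. The 3 letter A arrays formed a low cluster with no overlap with the other 5, and letter A stood lower than the mean of letters B and C by a log2 difference of -1.55 (SE 0.15, adjusted p = 0.0026), or 2.92-fold. The other subunits of phosphofructokinase, the committing step of glycolysis, did not share this direction. PFKL, the liver type, was higher on letter A arrays by 0.60 (SE 0.14, adjusted p = 0.03), a call kept in 7 of 18 alternative settings.

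PFKP, the platelet type, had log2 levels of 0.99, 0.98 and 1.30 on TAT arrays A, B and C, of 0.74, 0.70 and 0.81 on gp120 arrays A, B and C, and of 1.21 and 0.84 on control arrays A and B. All gp120 arrays lay below all TAT arrays and below both control arrays, while letter A fell among the others. PFKP differed by 0.34 (SE 0.19, 95% interval -0.09 to 0.77) between TAT and gp120 and by -0.27 (SE 0.21) between gp120 and control, and neither passed the test. Its second kept probe gave a difference of the opposite sign, -0.44, between TAT and gp120. GPI, which turns glucose 6-phosphate into fructose 6-phosphate, was higher on letter A arrays by 0.67 (SE 0.13, adjusted p = 0.017), a call kept in 9 of 18. The aldolases ALDOA and ALDOC, which split the 6-carbon sugar, and the isomerase TPI1 moved little, with ranges over all 8 arrays of 6.75 to 7.33, 2.87 to 3.36 and 6.13 to 6.72.

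Of the 5 payoff enzymes, which regain ATP, only ENO2 passed between letter A and letters B and C. PGK1, the first ATP-forming enzyme and a common HIF1A target, had log2 levels of 5.66, 5.30 and 4.98 on TAT arrays A, B and C, of 5.32, 5.94 and 5.38 on gp120 arrays A, B and C, and of 5.72 and 5.35 on control arrays A and B. The groups overlapped and the highest array was gp120 B. PGK1 differed by -0.22 (SE 0.29) between TAT and control and by 0.01 (SE 0.29) between gp120 and control. Its other kept probes gave -0.11 and -0.11 between TAT and control, and 0.33 and 0.37 between gp120 and control. GAPDH, the dehydrogenase often used as a reference gene, ranged from 6.84 to 7.25 on TAT arrays, from 7.10 to 7.36 on gp120 arrays and from 6.84 to 7.49 on control arrays. PGAM1, a mutase of the lower pathway, covered only 5.87 to 6.08 over the 8 arrays, and its gp120 arrays lay below both control arrays without passing the test (-0.11, SE 0.17). ENO1, the general enolase, covered 6.26 to 7.09.

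ENO2, the enolase typical of neurons, had log2 levels of -1.44, -0.04 and -0.60 on TAT arrays A, B and C, of -1.88, -0.62 and -0.84 on gp120 arrays A, B and C, and of -1.74 and -0.67 on control arrays A and B. The 3 letter A arrays were again lowest, and in each letter the TAT array was higher than the gp120 array. ENO2 was lower on letter A arrays by a log2 difference of -1.07 (SE 0.14, adjusted p = 0.00526). It differed by 0.42 (SE 0.49) between TAT and gp120, and with the letter as a block the same difference had an SE of 0.15 and an adjusted p of 0.581 in limma. In the deposited value table the letter difference of ENO2 was -0.08 and that of PFKM -0.42, and neither passed, whereas the second kept ENO2 probe on the scanner files gave -0.52 and the other PFKM probes -1.40 and -0.62. PKM, named through its accession, had log2 levels of 5.03, 4.74 and 4.71 on TAT arrays A, B and C, of 4.91, 4.31 and 4.84 on gp120 arrays A, B and C, and of 5.36 and 4.66 on control arrays A and B, and its letter A difference of 0.38 (SE 0.15) had an adjusted p of 0.119.

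The lactate and pyruvate branch held the largest difference among the members. SLC16A3, the transporter MCT4 that exports lactate from glycolytic cells, had log2 levels of 3.96, 1.33 and 0.51 on TAT arrays A, B and C, of 3.03, 0.72 and 0.75 on gp120 arrays A, B and C, and of 3.52 and 0.89 on control arrays A and B. Each letter A array was far above its group's other arrays, and the 3 groups overlapped over nearly their whole range. Letter A exceeded the mean of letters B and C by 2.70 (SE 0.22, 95% interval 2.17 to 3.24, adjusted p = 0.00154), a 6.51-fold difference, and all 4 kept probes of the gene were higher on letter A arrays, by 1.68 to 2.82. That spread left the treatment differences of SLC16A3 poorly bounded. They were -0.27 (95% interval -3.14 to 2.60) between TAT and control and -0.71 (-3.58 to 2.17) between gp120 and control. These values do not match arrays by letter, and the control group had no letter C array. Within letters A and B, TAT minus control was 0.45 and 0.44, opposite in sign to -0.27. The same pairs gave -0.49 and -0.17 for gp120 minus control. SLC16A1, the related carrier MCT1 that works in both directions, was lower on letter A arrays by a log2 difference of -0.53 (SE 0.12, adjusted p = 0.028), a call kept in 7 of 18 alternative settings.

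LDHA, the lactate dehydrogenase subunit that favours lactate formation, had log2 levels of 6.26, 5.16 and 4.81 on TAT arrays A, B and C, of 5.86, 5.71 and 5.23 on gp120 arrays A, B and C, and of 6.12 and 5.43 on control arrays A and B. Letter A was highest within each group, by 0.85 on average (SE 0.20, adjusted p = 0.028, kept in 7 of 18 alternative settings), and TAT, gp120 and control overlapped. LDHB, the subunit that favours pyruvate, covered 5.57 to 6.38. PDK1, the kinase that inhibits pyruvate dehydrogenase and so the conversion of pyruvate to acetyl-CoA, had log2 levels of 0.41, -0.13 and -0.03 on TAT arrays A, B and C, of -0.01, -0.41 and -0.38 on gp120 arrays A, B and C, and of -0.17 and -0.31 on control arrays A and B. All 3 TAT arrays lay above both control arrays, yet the difference of 0.32 (SE 0.24, 95% interval -0.23 to 0.88) did not pass, and 1 of its 3 kept probes gave -0.28.

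The enzymes that set the level of fructose 2,6-bisphosphate, the activator of phosphofructokinase, were both higher on letter A arrays. PFKFB3 exceeded letters B and C by 0.66 (SE 0.13, adjusted p = 0.017) and PFKFB4 by 0.60 (SE 0.17, adjusted p = 0.0484), calls kept in 9 and 3 of 18 alternative settings. For each of them 1 kept probe had the opposite sign, -0.26 for PFKFB3 and -0.29 for PFKFB4. On its brightest probe, neither gene differed by more than 0.15 in size between TAT and control, or between gp120 and control. The other kept probes gave 0.17 and 0.73 for PFKFB3 and 0.49 for PFKFB4 between gp120 and control. Between TAT and control they gave 0.17 and 0.05 for PFKFB3 and 0.14 for PFKFB4.

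HIF1A, the oxygen-regulated subunit of the transcription factor, had log2 levels of 4.45, 3.98 and 4.05 on TAT arrays A, B and C, of 4.21, 3.87 and 3.85 on gp120 arrays A, B and C, and of 4.48 and 3.83 on control arrays A and B. The 2 control arrays were the highest and the lowest of all 8, and letter A was highest in each group. Its difference was 0.01 (SE 0.27) between TAT and control, -0.18 (SE 0.27) between gp120 and control, and 0.45 (SE 0.13, adjusted p = 0.049) between letter A and letters B and C, a call kept in only 3 of 18 alternative settings. EGLN1, the main oxygen-sensing prolyl hydroxylase, had log2 levels of 2.77, 2.62 and 2.78 on TAT arrays A, B and C, of 2.48, 2.23 and 2.34 on gp120 arrays A, B and C, and of 2.23 and 2.62 on control arrays A and B. It showed no letter pattern, and the TAT arrays lay above both other groups, TAT B only just above control B. The difference of 0.37 between TAT and gp120 (SE 0.18, 95% interval -0.05 to 0.79) had the smallest p of all members in that comparison but an adjusted p of 1 in limma. The other 2 kept EGLN1 probes gave -0.15 and -0.06 between TAT and control, against 0.30 for the brightest, and 0.24 and -0.04 between TAT and gp120.

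EGLN3, a prolyl hydroxylase that is itself induced by HIF1A, was dim. It was well above background on 5 of 8 arrays, namely 2 of 3 TAT, 1 of 3 gp120 and 2 of 2 control arrays, so it passed the filter only through the control group and its differences are limited by background. Its log2 levels were -4.07, -4.51 and -5.40 on TAT arrays A, B and C, -4.44, -5.20 and -5.19 on gp120 arrays A, B and C, and -4.08 and -4.89 on control arrays A and B. The letter A arrays were highest in each group, with a difference of 0.87 (SE 0.18, adjusted p = 0.0211), a call kept in 6 of 17 alternative settings.

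The 8 hypoxia response genes did not move as one. CA9, a carbonic anhydrase that regulates pH at the cell surface, had log2 levels of -1.58, -1.30 and -0.86 on TAT arrays A, B and C, of -0.85, -2.72 and -0.61 on gp120 arrays A, B and C, and of -1.35 and -1.80 on control arrays A and B. The gp120 group held both the highest and the lowest array, and neither the letter A difference (0.07, SE 0.36) nor a treatment difference passed. Only 1 of the 3 CA9 probes was kept, as the others were well above background on 3 and 0 of 8 arrays. BNIP3, a mitochondrial protein of mitophagy and cell death, had log2 levels of 1.56, 1.14 and 1.68 on TAT arrays A, B and C, of 1.34, 1.60 and 2.22 on gp120 arrays A, B and C, and of 1.54 and 1.28 on control arrays A and B. Its highest array was gp120 C, its lowest TAT B, and its groups overlapped.

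BNIP3L, the relative of BNIP3 that also directs mitophagy, had log2 levels of 4.17, 4.05 and 3.88 on TAT arrays A, B and C, of 4.11, 3.85 and 4.00 on gp120 arrays A, B and C, and of 4.39 and 4.20 on control arrays A and B. Both control arrays lay above all 6 treated arrays, by a narrow margin. BNIP3L differed by -0.26 (SE 0.19, 95% interval -0.71 to 0.19) between TAT and control and by -0.30 (SE 0.19, 95% interval -0.75 to 0.15) between gp120 and control, and neither passed.

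ADM, the vasodilator peptide adrenomedullin, had log2 levels of 4.08, 4.23 and 4.31 on TAT arrays A, B and C, of 3.12, 4.29 and 4.25 on gp120 arrays A, B and C, and of 3.05 and 4.47 on control arrays A and B. Only gp120 A and control A were low, while TAT A lay close to the other arrays. Its letter A difference of -0.86 (SE 0.25) missed the threshold with an adjusted p of 0.0503, and it passed under 6 of the 18 alternatives.

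ANKRD37, a small ankyrin repeat protein and a known HIF1A target in human cells, had log2 levels of 0.45, -1.16 and -0.65 on TAT arrays A, B and C, of 0.15, -1.52 and -0.50 on gp120 arrays A, B and C, and of 0.10 and -1.54 on control arrays A and B. Letter A was highest and letter B lowest in every group, and the 3 letters did not overlap. Letter A exceeded the mean of letters B and C by 1.26 (SE 0.14, adjusted p = 0.00404), a 2.39-fold difference, and both kept probes gave this direction. NDRG1, a stress-responsive differentiation gene, was higher on letter A arrays by 0.97 (SE 0.17, adjusted p = 0.0135) and DDIT4, an inhibitor of mTOR signalling, by 0.78 (SE 0.17, adjusted p = 0.0242), calls kept in 13 and 9 of 18 alternative settings. KDM3A, a histone demethylase, covered 0.60 to 1.26 with no letter difference past the test (-0.14, SE 0.20).

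**Figure D2:**
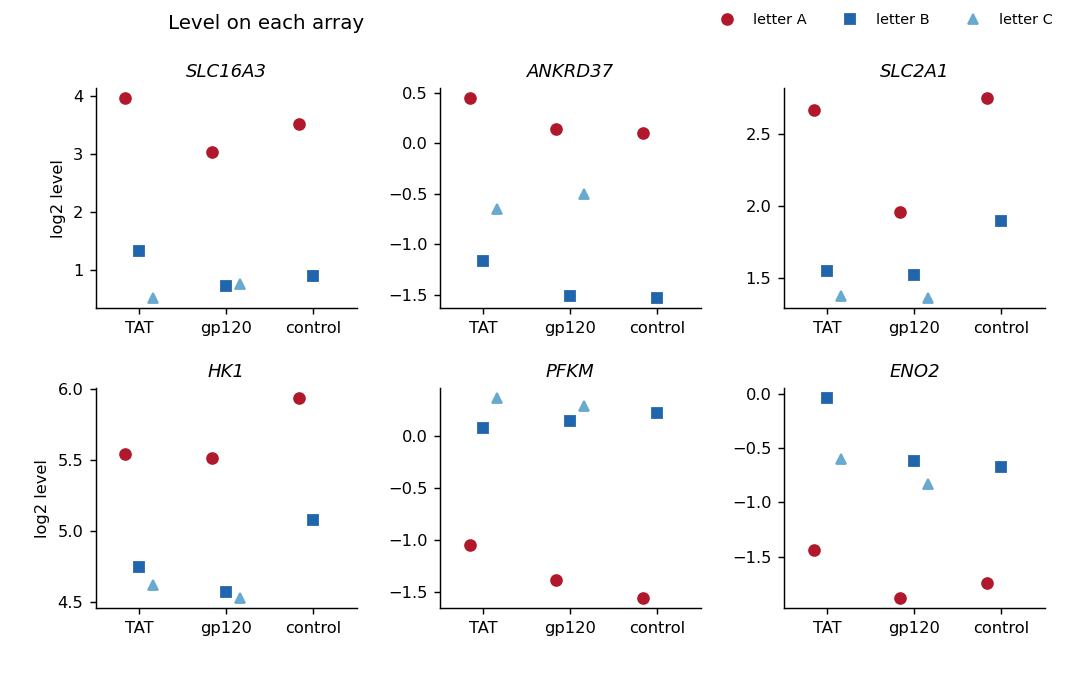
Log2 level (vertical axis, own scale per gene) of 6 genes on each array, by group along the horizontal axis and with the replicate letter as colour and symbol (circle A, square B, triangle C). SLC16A3, ANKRD37, SLC2A1 and HK1 have their highest array of each group at letter A, and PFKM and ENO2 their lowest, in TAT, gp120 and control alike.

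Comparing TAT with control across all members, 16 of 33 were higher and 17 lower. Differences ran from -0.54 to 0.52 with a median of 0.00 (-0.03 over all genes tested), or 0.02 with all kept probes averaged. These signs are those of the brightest probe. Of the 28 members with more than 1 kept probe, 19 had probes of both signs in this comparison. By limma, 0 of 33 members and 0 of 11994 genes (0%) had an adjusted p under 0.05, and 0 members had an unadjusted p under 0.05, against 159 genes (1.33%). With the letter as a block the unadjusted counts were 0 members and 577 genes (4.81%). The smallest unadjusted p of a member belonged to EGLN1, PDK1 and BNIP3L without the block. PDK1 and EGLN1 had all TAT arrays above both control arrays, as did 4.90% of all genes, and BNIP3L had them below, as did 9.05%. In same-letter pairs, 9 members were higher with TAT in both pairs (19.0% of all genes) and 7 were lower in both (31.2%).

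For gp120 against control, 18 of 33 members were higher and 15 lower. Differences ran from -0.71 to 0.35 with a median of 0.01 (-0.01 over all genes), or 0.12 with all kept probes averaged. Of the 28 members with more than 1 kept probe, 15 had probes of both signs. Again 0 members and 0 genes (0%) passed in limma, and at an unadjusted p under 0.05 there were 0 members against 328 genes (2.73%). The block raised this to 2 members, SLC2A1 (-0.53, SE 0.22) and HK1, against 706 genes (5.89%). In 0 members did all gp120 arrays lie above the controls (5.45% of genes), and in 3, PFKP, PGAM1 and BNIP3L, they all lay below (7.41%). Within letters, 5 members were higher with gp120 in both pairs (20.3% of genes) and 9 were lower in both (26.7%), SLC2A1, HK1, GPI and BNIP3L among them.

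Both comparisons share the same 2 control arrays, and their medians depended on which control array was used. Without control B the median of the members was -0.32 for TAT and -0.26 for gp120, and without control A it was 0.19 and 0.17. In row 1 alone it was 0.23 for TAT and 0.03 for gp120. A block for slide row gave 0.18 and 0.15, and a block for scan 0.00 and 0.03. None of these fits matched arrays by letter. Within letters A and B the members' median was 0.01 and -0.004 for TAT minus control. For gp120 minus control it was -0.20 and 0.01. With the letter as a block the median was 0.01 in both comparisons. The 95% interval of the median member reached 0.81 to either side in both comparisons, against 0.70 over all genes, and 0.52 with the letter as a block. In either fit, an estimated change smaller than this reach to either side would leave 0 inside the interval of a typical member. The intervals are not adjusted over genes, so passing the adjusted test could take a larger change.

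**Figure D3:**
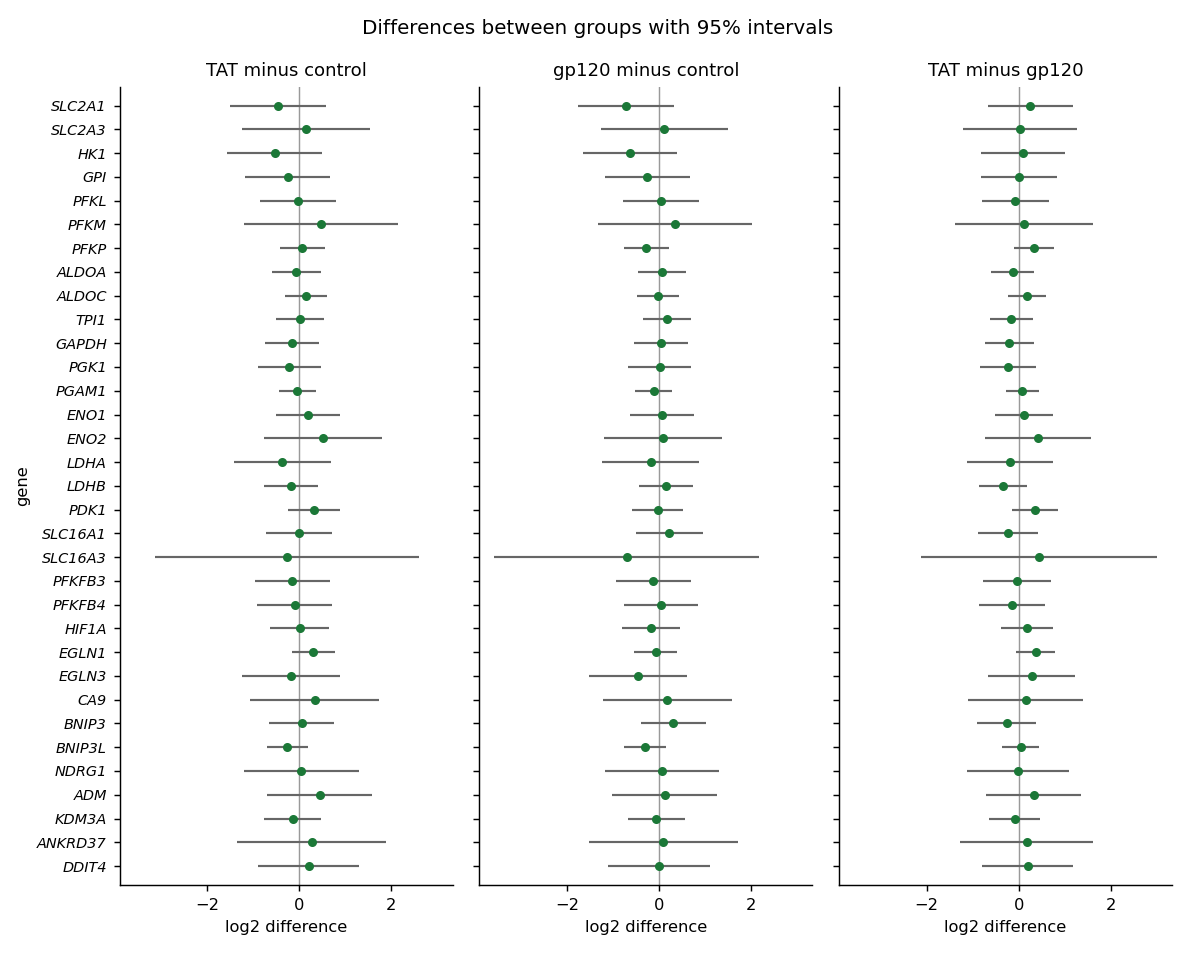
Log2 differences of the 33 genes (points) with 95% intervals (bars), for TAT minus control, gp120 minus control and TAT minus gp120. Every interval includes 0, and the widest in each panel is that of SLC16A3.

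Between the proteins, 20 of 33 members were higher with TAT than with gp120 and 13 lower, with a median difference of 0.07 (-0.02 over all genes). The median was -0.04 with all kept probes averaged and -0.02 in the deposited value table. Of the 28 members with more than 1 kept probe, 19 had probes of both signs. In limma 0 members and 0 genes (0%) passed, and 0 members had an unadjusted p under 0.05 against 319 genes (2.66%). With the letter as a block 1 member, ENO2, did so against 978 genes (8.15%). PFKP and EGLN1 had all TAT arrays above all gp120 arrays (3.06% of genes), and 0 members had them below (3.58%).

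The 3 same-letter pairs did not agree in direction. On letter A arrays 28 of 33 members were higher with TAT, with a median of 0.24, on letter B arrays 17 of 33 with a median of 0.03, and on letter C arrays 12 of 33 with a median of -0.12. Over all genes 47.7%, 47.7% and 45.9% were higher with TAT in these pairs. The letter A pair came from the same scan. In letters B and C the gp120 array came from the separate scan and the TAT array did not, so protein and scan cannot be told apart there. Without TAT A the median of the members between TAT and gp120 was -0.17. Higher with TAT in all 3 pairs were 8 members (13.6% of genes): SLC2A1, HK1, PFKP, ALDOC, ENO2, PDK1, HIF1A and EGLN1. Lower in all 3 were LDHB, SLC16A1 and PFKFB4 (18.7% of genes).

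The differences between letters, fitted with the group as a covariate, were much larger. By limma's F-test over the letters 13 of 33 members passed, against 18.2% of all genes. In the comparison of letter A with the mean of letters B and C 17 of 33 passed, against 23.7%, of which 14 were higher (10.8%) and 3 lower (12.8%). The 14 higher members were SLC2A1, SLC2A3, HK1, GPI, PFKL, LDHA, SLC16A3, PFKFB3, PFKFB4, HIF1A, EGLN3, NDRG1, ANKRD37 and DDIT4, and the 3 lower ones were PFKM, ENO2 and SLC16A1. The median over the 33 members was 0.28, against -0.01 over all genes. All letter A arrays lay above all other arrays in 13 members (13.8% of genes) and below them in 4, PFKM, ENO2, SLC16A1 and ADM (15.6%).

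Letters B and C were told apart by 0 of 33 members, against 1.66% of genes in limma, and 4 members had an unadjusted p under 0.05, a share no larger than the 16.9% of all genes that did. The 4 were ANKRD37 (-0.77, SE 0.19), SLC16A1 (-0.45, SE 0.16), BNIP3 (-0.61, SE 0.22) and CA9 (-1.21, SE 0.46), each lower in letter B than in letter C. Of the 14 members called for letter A that had more than 1 kept probe, 12 had all their probes on the same side of 0, and the exceptions were PFKFB3 and PFKFB4.

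The number of letter A calls fell when single arrays were left out and when slide row or scan was a block. Leaving out TAT C gave 5 called members (1161 genes), TAT A 6 (1462 genes), gp120 C 6 (865 genes), and control A or control B 7 each (1625 genes). Without gp120 A there were 9 (1254 genes), without TAT B 14 (2287 genes) and without gp120 B 16 (2536 genes), so calls among all genes fell in each of these fits too. The fits without control A and without control B are the same letter fit, since the group term takes up the control array left. Scan as a block likewise repeats the fit without gp120 A, because gp120 A is the only gp120 array of its scan. All letter A arrays lie in row 1 of the slide, and control B is the only array of another letter there. With slide row as a block, which rests on that array, 0 members and 45 genes passed, while the median of the members was 0.58 and the differences of SLC16A3, ANKRD37, HK1 and PFKM were 2.82, 1.26, 0.90 and -1.89. With scan as a block 9 members and 1254 genes passed, and on the 6 arrays of scan 2 alone 3 members and 548 genes did.

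**Figure D4:**
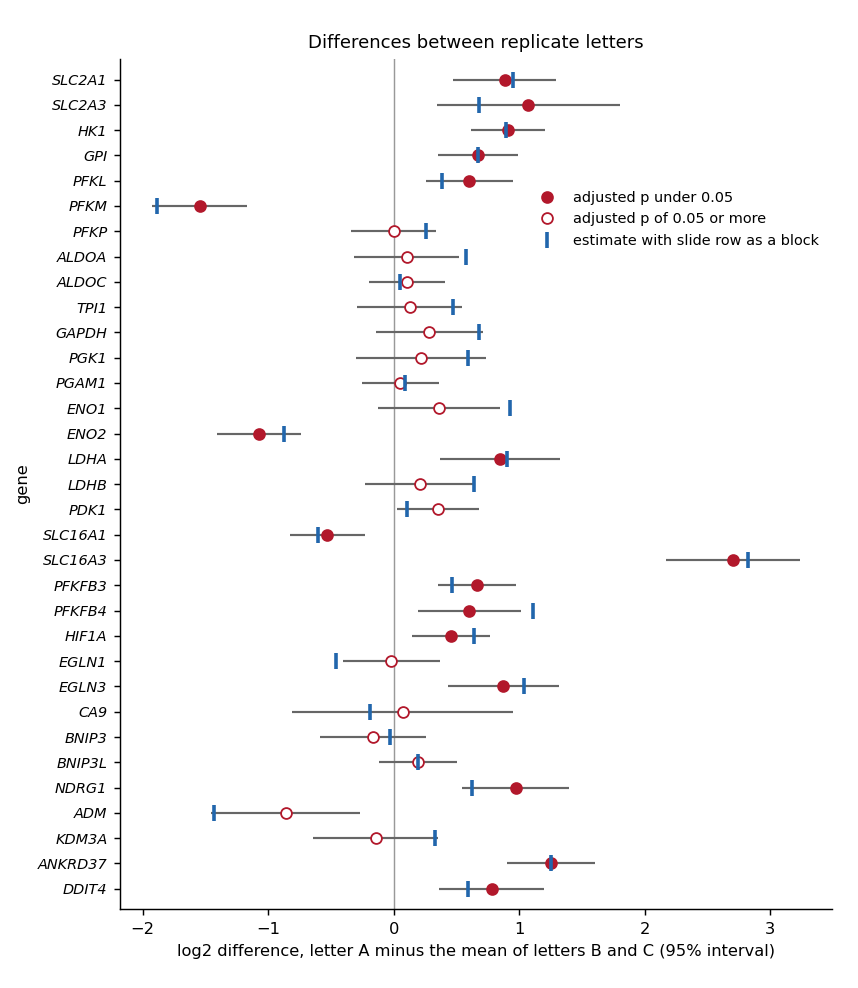
Log2 difference between letter A and the mean of letters B and C for the 33 genes (circles, filled where the adjusted p is under 0.05) with 95% intervals, and the same difference with slide row as a block (vertical ticks). SLC16A3 stands apart at 2.70, PFKM and ENO2 lie lowest, and the ticks of all 17 filled circles lie on the same side of 0 as the circles.

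Other gene lists were read in the same comparison, in which 10.8% of all genes passed as higher and 12.8% as lower. Of the cell cycle genes 7 of 11 passed as lower on letter A arrays and 0 as higher, with a median difference of -0.93. Their summed level, in units of the array's 75th percentile, was 19.3 to 22.9 on letter A arrays and 24.5 to 34.1 on the others, and 11 of 11 were well above background on all arrays. Of 9 pericyte and smooth muscle markers, 9 of them well above background on all arrays, 4 passed, all lower, with summed levels of 141 to 226 on letter A arrays and 238 to 467 on the others. In the Müller glia list 2 of 8 tested markers passed as lower and 0 as higher, among endothelial markers 1 of 6 as lower and 2 as higher, among 15 microglia and macrophage markers 1 as lower, and among 10 fibroblast and stromal markers 0. Their part in the letter differences of the glycolysis and hypoxia genes was not tested. Against control, all 10 tested fibroblast and stromal markers were higher with TAT (median 0.70) and 0 passed, with summed levels of 227 to 309 on TAT arrays and 167 to 176 on control arrays. With gp120 9 of 10 were higher (median 0.20). Cell cycle genes were higher in 11 of 11 cases with TAT (median 0.57) and with gp120 (0.61). Pericyte markers were higher in 8 of 9 with TAT (0.54) and with gp120 (0.41), and 0 of these genes passed. These comparisons do not match letters, and the controls had no letter C array. The gene-centred cell cycle median was -0.19, -0.67 and -0.87 on TAT A, gp120 A and control A. On TAT B it was 0.06, below the 0.18 of control B, and on gp120 B it was 0.64.

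**Figure D5:**
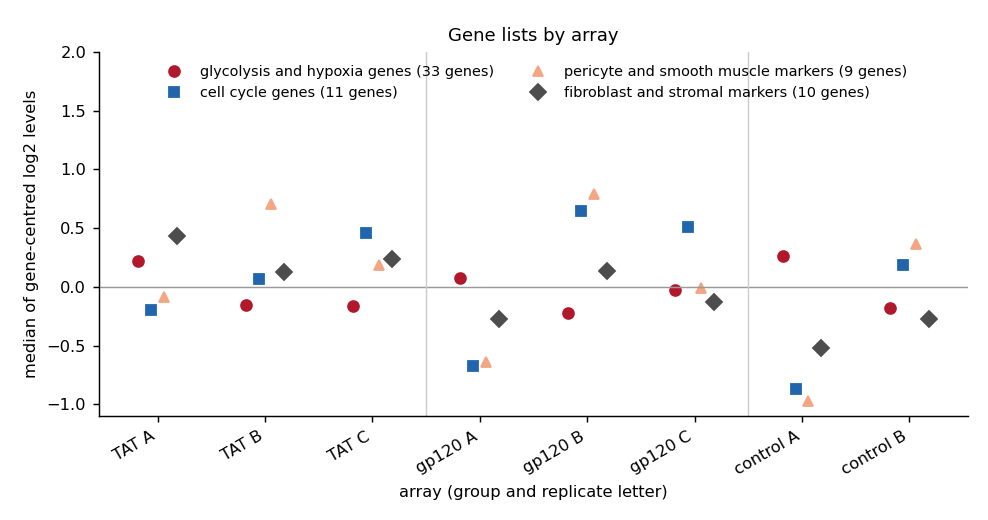
Median over each list of the log2 levels after subtracting each gene's mean over the 8 arrays (vertical axis), by array, for the glycolysis and hypoxia genes and 3 other lists. The glycolysis and hypoxia median is 0.22, 0.07 and 0.26 on TAT A, gp120 A and control A and between -0.22 and -0.03 on the other 5 arrays, whereas the cell cycle median is below 0 on the letter A arrays and above 0 on the other 5.

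Of the neighbouring pathway genes, from lists that hold none of the members, 0 passed for either protein. Among 26 tested other glycolysis and hexose genes 0 passed for TAT and 0 for gp120 against control, with medians of -0.10 and -0.07. The smallest unadjusted p belonged to PKLR (-0.44, SE 0.21) and TIGAR (-0.79, SE 0.40) for TAT, and to PFKFB1 (-0.46, SE 0.33) and PKLR (-0.28, SE 0.21) for gp120. PKLR is the pyruvate kinase of liver and red cells and TIGAR a phosphatase that lowers fructose 2,6-bisphosphate. Between the proteins the leading genes were SLC2A8 (-0.44, SE 0.21), a glucose transporter, and TIGAR (-0.61, SE 0.36), and 0 passed.

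Of the 13 tested genes for the entry of pyruvate into mitochondria 0 passed, with medians of -0.20 for TAT and -0.18 for gp120. The leading genes were MPC1 (-0.44, SE 0.22), a subunit of the mitochondrial pyruvate carrier, and PDK3 (-0.41, SE 0.21), a relative of PDK1, for TAT. For gp120 they were MPC2 (-0.36, SE 0.17), the other carrier subunit, and PDHX (-0.38, SE 0.19), a component of the pyruvate dehydrogenase complex. BSG (-0.48, SE 0.25), the partner that brings lactate carriers to the cell surface, and the carrier SLC16A7 (1.07, SE 0.94) led between TAT and gp120.

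Among 30 other oxygen sensing and hypoxia genes 0 passed, with medians of 0.05 for TAT and 0.04 for gp120. ARNT2, a partner subunit of HIF1A, led with 1.11 (SE 0.35) between TAT and control and 1.37 (SE 0.31) between TAT and gp120, at an adjusted p of 0.999 and 1 in limma. It was followed by the relative HIF3A (0.57, SE 0.30) between TAT and control and by KDM4C (-0.41, SE 0.15), a histone demethylase, between TAT and gp120. HIF1AN, the hydroxylase that blocks the activity of HIF1A, led for gp120 with 1.22 (SE 0.44), followed by KDM4C with 0.39 (SE 0.17). Between letter A and letters B and C, where 10.8% of all genes passed as higher and 12.8% as lower, the counts were 3 and 4 of the 26, 2 and 0 of the 13, and 5 and 2 of the 30.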

How the data were processed

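RNA of 8 samples was measured on 8 single-colour arrays. Per the file headers, the authors made the intensity values with Agilent Feature Extraction 11.5.1.1, which subtracted background and put surrogate values near it, without scaling between arrays. A second, deposited table gives log2 values by gene name. The steps behind it are not stated in the labels or headers. The medians of its columns were -3.20 and -3.30 (control A, B), -3.26, -3.21 and -3.25 (TAT A, B, C) and -3.25, -3.18 and -3.33 (gp120 A, B, C). Against the scanner values each column had a slope of 0.999 to 1.016 and r of 0.993 to 0.999, so scale and direction match and no centring per gene is seen, but within a tolerance of 0.02 after a shift only gp120 B and C matched (98% and 97.8% of gene names, 8.48% to 15.2% on the other arrays). It served as an alternative.

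Control and outlier spots were left out and repeated spots averaged. The main values were log2 processed signals minus each array's 75th percentile. A probe was kept if well above background on every array of 1 or more groups (94 of 104 member probes), and the brightest kept probe stood for its gene. Other probes were named against the bovine RefSeq gene table. limma 3.58.1 in R 4.3.3 (lmFit, eBayes, Benjamini-Hochberg) fitted all 8 arrays, and the analysis was tested on simulated data. Deviations from group means correlated at 0.375 to 0.746 between arrays of the same letter and at -0.65 to 0.416 between different letters. The ranges overlap, and control B correlated with TAT C at 0.416 and with TAT B at 0.408. Since every same-letter value was above 0.1, the letters were taken to pair the arrays. The blocked values are given where they change a count. Deviations of control A and control B from their shared mean are mirror images, so control B repeats the control A correlations with the sign changed. Control A correlated with TAT B at -0.408 and with gp120 B at -0.375. The rule therefore could not test whether control B pairs with the other letter B arrays. For control B, the letter block and same-letter pairs rest on the labels. Alternatives were normexp (offset 50), quantile normalization, other filters and probe rules, the deposited table, letter, slide row and scan as blocks, and each array left out. Combinations of letter with row or scan were added after seeing the data.

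Members and lists were chosen with earlier results of these data known. Values on every array are given for 9 genes listed by name, the 3 members with the smallest p in each treatment comparison with and without the letter block, and the 4 with the smallest p between letters, while of the neighbouring lists the 2 with the smallest p per treatment comparison are named. Figures used matplotlib 3.10.9 in Python 3.11.15. Precision is limited by the number of arrays.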

Additional observations from a re-analysis of the deposited data

How the results depend on the processing

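No member passed for TAT or gp120 under any alternative. The deposited value table called 4, 4 and 16 genes for TAT minus control, gp120 minus control and TAT minus gp120, and leaving out 1 array called 0 to 1, 0 to 1 and 0 to 2. The members' median ranged from -0.3207 to 0.1866, from -0.2558 to 0.1703 and from -0.1657 to 0.1462 as arrays were left out. It was 0.226 for TAT minus control in row 1 alone and -0.217 for gp120 minus control with the replicate block and scan. The replicate block alone gave medians of 0.01, 0.01 and 0.07 and 0 calls. Between letters (main 2184 genes, 13 members) 1078 genes and 5 members passed with no filter, 777 and 3 in the deposited table, 152 and 0 with slide row as a block, 910 and 6 with scan as a block, 180 and 1 in scan 2 alone, and 590 to 1559 and 4 to 7 as arrays were left out. For letter A against B and C (main 2839 genes, 17 members, median 0.28) the same settings gave 1795 and 9, 1411 and 6, 45 and 0, 1254 and 9, 548 and 3, and 865 to 2536 and 5 to 16. The members' median there was 0.194 with all kept probes averaged, 0.203 in the deposited table, 0.578 with slide row, 0.488 with scan, 0.446 in scan 2 alone and 0.171 to 0.488 as arrays were left out. Letter B against C called 38 genes with no filter, 53 in the deposited table, 95 with slide row, 8 in scan 2 alone, and 14 to 149 as arrays were left out. None of the 17 members changed sign under any of these alternatives. SLC16A3 and ANKRD37 each kept their call in 17 of 18, and PFKFB4 and HIF1A in 3 of 18. These 18 settings are not all distinct, so such tallies count some fits more than once. Naming probes by accession gave the same counts and median as the main fit. Leaving out control A repeats leaving out control B, and scan as a block repeats leaving out gp120 A. Fits on fewer arrays have less power, and causes of the other shifts were not tested. With 2 control arrays, differences of the sizes seen here in single members could not be resolved.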
